A study of Mus musculus with 25 samples.

Results

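Naive pluripotency is the state of the mouse epiblast before implantation, and mouse embryonic stem cells (mESCs) keep it in culture as long as a small circuit of transcription factors is active. The 9 genes described here, Klf2, Klf4, Klf5, Esrrb, Tbx3, Zfp42, Tfcp2l1, Nr0b1 and Dppa3, were chosen by gene symbol, and 16 of the 45281 probes on the array carried one of these symbols. A probe was kept when its signal stood out from the negative controls, at a detection p under 0.01, on at least 2 arrays. By that rule 13 of the 16 probes and 8 of the 9 genes were kept, among 10656 genes with a kept probe in all.

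In naive mESCs the cytokine LIF acts through Stat3 on Klf4 and Tfcp2l1, and inhibition of Gsk3 lifts the repressor Tcf7l1 from Esrrb, so that the factors receive separate inputs and sustain each other. When LIF is withdrawn and cells aggregate, the factors decline while formative genes such as Fgf5 and Otx2 rise. In embryoid bodies (EBs) the outer cells become primitive endoderm, which makes Gata6, Sox17 and laminin. Dppa3 and Zfp42 are widely used as markers of the naive state, and Nr0b1 encodes a corepressor that binds nuclear receptors.

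EBs were formed from the mESC line B6G-2, derived from a C57BL/6 mouse that carries GFP and kept on feeder fibroblasts beforehand, and all arrays are of this 1 line. They were exposed for 48 h to the solvent DMSO at 0.1% or to 1 of 12 chemicals at 2 doses, and RNA was read on Illumina Mouse WG-6 bead arrays, 25 in total. The hormones oestradiol (E2), dihydrotestosterone (DHT, dehydrotestosterone in the labels), triiodothyronine (T3) and dexamethasone (DEX), the dioxin TCDD and a hydroxylated polychlorinated biphenyl (PCB) were given at 1 and 10 nM, although another label writes the lower DHT dose as 1 M. Bisphenol A (BPA) was given at 1 and 100 pM. Thalidomide (TMD), the insecticide permethrin (PMT) and the hedgehog inhibitor cyclopamine (CPM) were given at 0.1 and 10 uM, and the plasticizer DEHP and methoprene acid (MPA) at 1 and 100 uM. Each condition had 1 array, so p-values measure only the spread between doses, and for a given chemical a dose effect and array noise cannot be told apart. The methods speak of triplicate experiments without saying whether RNA was pooled.

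The arrays were also placed in 5 groups that share a dose range and a set in which the authors normalized them: DMSO with E2 and DHT (5 arrays), BPA (2 arrays), T3 with DEX, TCDD and PCB (8 arrays), TMD with PMT and CPM (6 arrays), and DEHP with MPA (4 arrays). The DMSO array has no dose, so its place with E2 and DHT rather than with BPA was a choice. The first 7 arrays form the first normalization set and the other 18 the second. Array group and chemicals cannot be told apart, since no chemical was run in more than 1 group. Between 14451 and 16381 probes were detected per array. The stem cell genes Pou5f1, Sox2, Nanog and Sall4 were detected on all 25 arrays, as was Thy1, 1 of 8 markers of feeder fibroblasts. Of the other 7 markers, Dcn was detected on 23 arrays, Twist2 on 7, Col1a1 on 3, Col1a2 on 2, Col3a1 on 1, and Lum and Postn on none. Values below are background-corrected, quantile-normalized signals on the log2 scale, a difference of 1 being a factor of 2, and the level of 1 gene cannot be set against that of another.

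Every kept gene was detected on all 25 arrays through the probe that stands for it, which is its brightest kept probe on average. In whole EBs, fewer cells of a type and less RNA per cell cannot be told apart. Nr0b1 was measured by 1 probe (ILMN_2615796), which was detected on 0 arrays, with a lowest detection p of 0.0684, so its expression was not measurable here. A second probe of Klf5 (ILMN_2433293) and of Esrrb (ILMN_2555396) was also detected on 0 arrays. The widest range belonged to Esrrb, from 9.88 after the higher dose of MPA to 13.54 after the higher dose of BPA, a 12.7-fold span. Tfcp2l1 spanned 8.93-fold, from 8.99 to 12.15, between the same arrays. Dppa3 spanned 6.56-fold, from 7.29 after the lower dose of DEX to 10.01 after the lower dose of BPA. The spans of Klf4, Klf5, Klf2, Tbx3 and Zfp42 were 2.91-fold, 2.44-fold, 2.24-fold, 1.97-fold and 1.85-fold.

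**Figure D1:**
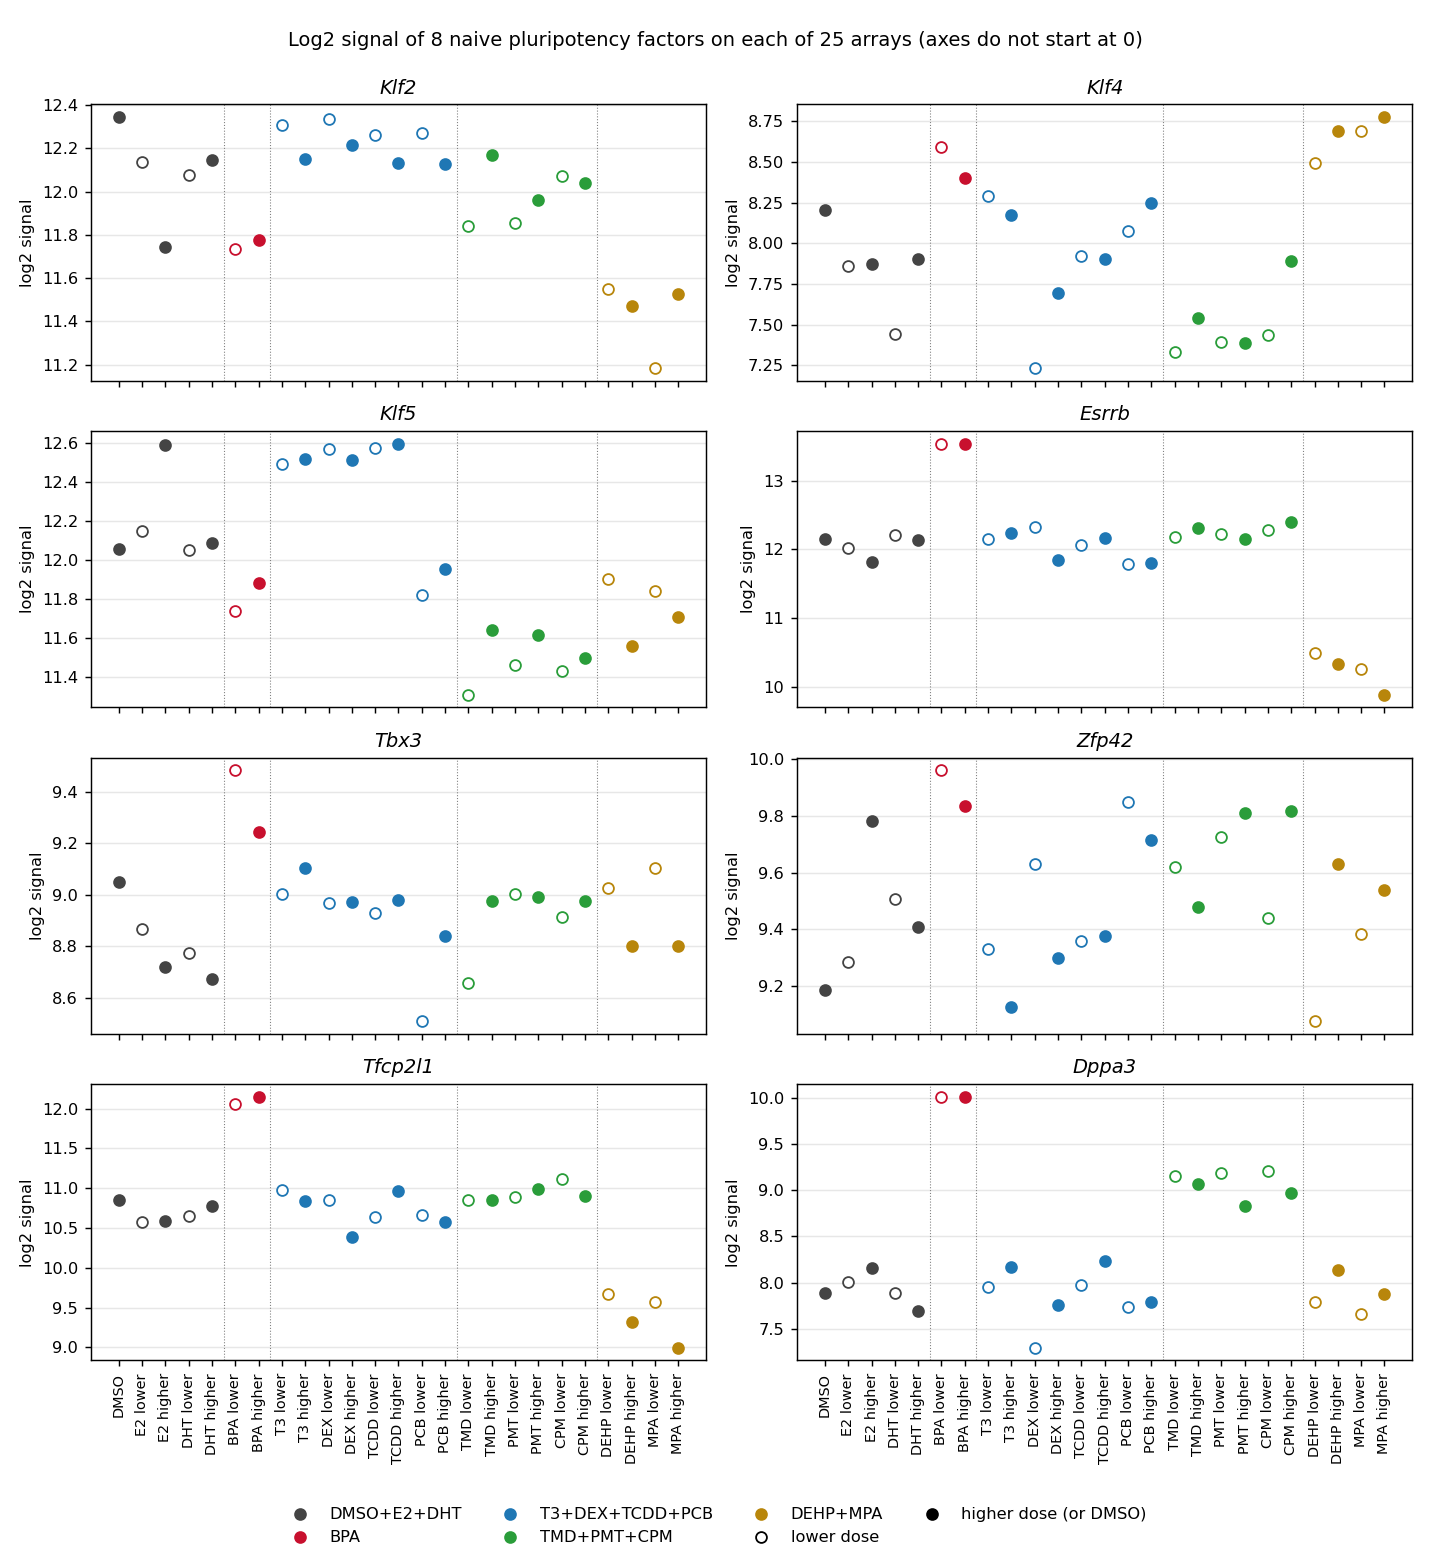
Each panel plots the log2 signal of 1 gene (vertical axis) on the 25 arrays (horizontal axis), with colours for the array groups, open points for lower doses and filled points for higher doses and DMSO. Esrrb and Tfcp2l1 are high on the 2 BPA arrays and low on the 4 DEHP and MPA arrays, and Dppa3 is high on the BPA arrays and the 6 TMD, PMT and CPM arrays.

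The first question is whether the chemicals differed from each other beyond the spread between doses. All 8 genes differed among the 12 chemicals by the moderated F test of limma, against 74.6% of all 19140 kept probes, so the count itself is not particular to these genes. The adjusted p was 3.44e-18 for Esrrb, 2.24e-13 for Tfcp2l1, 2.87e-12 for Dppa3 and 2.92e-10 for Klf5. It was 0.0248 for Tbx3 and 0.0236 for Zfp42, the genes with the smallest spans. The median difference between the doses of a chemical was 0.11 for Esrrb and 0.13 for Tfcp2l1, and the largest was 0.48 for Esrrb, after DEX, and 0.57 for Tfcp2l1, after MPA.

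Primitive endoderm, which the outer cells of EBs become, was followed by 11 markers, all measured by a kept probe. Their signals were summed before log2 was taken, so the brightest probes weigh most in the sum. Amn, Lama1 and Dab2 had medians of 13.18, 12.84 and 12.66 over the arrays, against 5.35 for Gata4 and 5.90 for Foxa2. The summed signal of the 11 markers was 11.83 to 11.87 on the log2 scale after BPA, 13.54 to 13.75 after TMD, PMT and CPM, and 15.34 to 15.73 after DEHP and MPA. It was 14.83 to 15.14 for DMSO, E2 and DHT and 13.97 to 15.38 for T3, DEX, TCDD and PCB, in which the PCB arrays were the low ones (13.98 and 13.97). After BPA 10 of the 11 markers were lower than after E2 and DHT, with a median difference of -2.84, that of Sox7, and Gata4, Sox17, Foxa2 and Ttr were detected on neither array. In DEHP and MPA all 11 were higher than in the other 7 chemicals, with a median difference of 1.48. In TMD, PMT and CPM 10 were lower than in T3, DEX, TCDD and PCB, with a median difference of -1.12, and Gata4 and Foxa2 were detected on 0 of the 6 arrays. After PCB 10 were lower than after T3, DEX and TCDD, with a median difference of -1.03. In these comparisons, in the order given, 39.4%, 30.8%, 49.6% and 28.4% of all probes passed in either direction. The marker values stand beside each result on the naive factors that follows, and the part of the markers in those results was not tested.

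Esrrb encodes an orphan nuclear receptor that binds and activates many genes of the naive circuit, and Tfcp2l1 encodes a grainyhead-family factor downstream of LIF and Stat3. After BPA, Esrrb was 13.53 at the lower and 13.54 at the higher dose. The DMSO array read 12.15, the E2 arrays 12.02 and 11.82, and the DHT arrays 12.21 and 12.13. After DEHP it was 10.50 and 10.32, and after MPA 10.26 and 9.88, at the lower and higher doses. The BPA arrays therefore lay above every other array and the DEHP and MPA arrays below every other, with the remaining 19 arrays between 11.79 and 12.40. The T3, DEX, TCDD and PCB arrays had a median of 12.10 (range 11.79 to 12.32), and the TMD, PMT and CPM arrays one of 12.25 (range 12.16 to 12.40).

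Tfcp2l1 also had its highest values after BPA and its lowest after DEHP and MPA. It was 12.05 and 12.15 after BPA, against 10.86 on the DMSO array, 10.57 and 10.59 after E2, and 10.65 and 10.78 after DHT. It was 9.68 and 9.31 after DEHP, and 9.57 and 8.99 after MPA. The medians were 10.75 (range 10.39 to 10.98) for the T3, DEX, TCDD and PCB arrays and 10.90 (range 10.85 to 11.12) for the TMD, PMT and CPM arrays. As with Esrrb, neither the BPA arrays nor the DEHP and MPA arrays overlapped any other array. Over the 25 arrays the signals of both genes correlated at r = 0.98, and at r = 0.73 after the mean of each array group was removed, a description over arrays that share cultures and scaling.

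**Figure D2:**
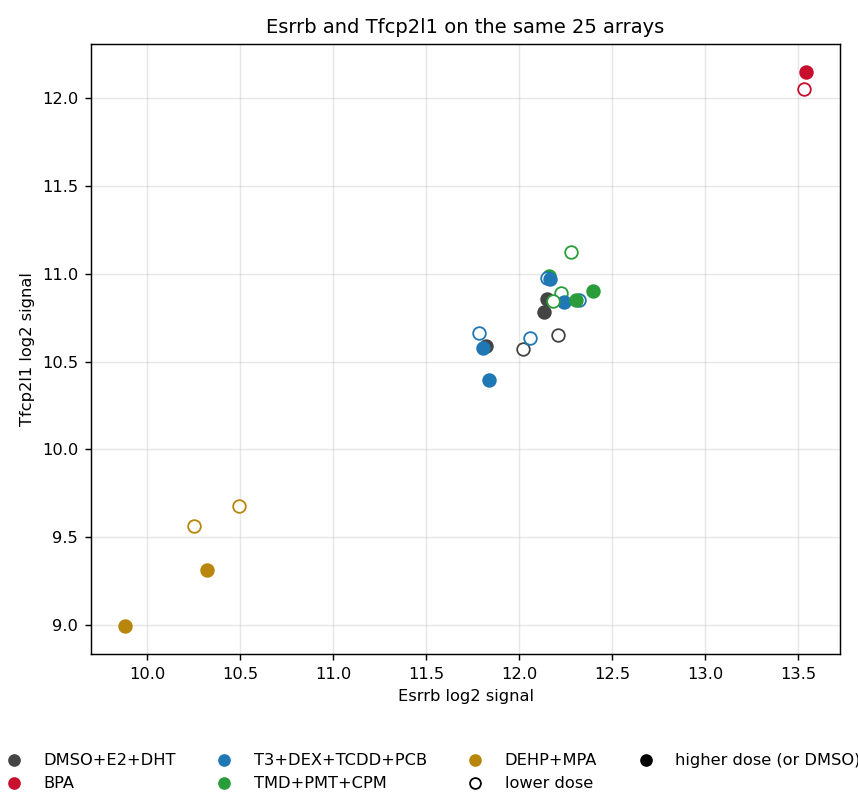
Each point is 1 of the 25 arrays, with the log2 signal of Esrrb on the horizontal axis and that of Tfcp2l1 on the vertical axis, coloured by array group and open for lower doses. The points follow a rising line from the 4 DEHP and MPA arrays at the lower left to the 2 BPA arrays at the upper right (r = 0.98).

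The stretches of DNA in front of these genes are shown because Esrrb and Tfcp2l1 moved together. They hold the 250 bases before the annotated starts in RefSeq (GRCm38.p6, plus strand), Esrrb having 2 starts. Capitals mark matches to any of 4 motifs on either strand: CCACCC, the GC box type bound by Klf factors, TTCNNNGAA, the type bound by Stat factors, AAGGTCA, the type bound by Esrrb itself, and ATGCAAAT, the octamer.
Esrrb first start, chr12:86360867-86361116: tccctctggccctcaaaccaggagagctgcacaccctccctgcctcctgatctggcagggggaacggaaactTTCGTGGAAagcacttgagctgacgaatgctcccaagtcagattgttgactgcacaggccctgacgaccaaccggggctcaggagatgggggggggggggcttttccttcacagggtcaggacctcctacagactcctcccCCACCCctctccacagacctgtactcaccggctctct
Esrrb second start, chr12:86421394-86421643: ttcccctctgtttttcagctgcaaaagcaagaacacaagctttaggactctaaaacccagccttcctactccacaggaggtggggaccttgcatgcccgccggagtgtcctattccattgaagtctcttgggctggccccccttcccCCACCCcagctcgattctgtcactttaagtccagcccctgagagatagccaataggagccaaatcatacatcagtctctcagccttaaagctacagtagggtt
Tfcp2l1, chr1:118627695-118627944: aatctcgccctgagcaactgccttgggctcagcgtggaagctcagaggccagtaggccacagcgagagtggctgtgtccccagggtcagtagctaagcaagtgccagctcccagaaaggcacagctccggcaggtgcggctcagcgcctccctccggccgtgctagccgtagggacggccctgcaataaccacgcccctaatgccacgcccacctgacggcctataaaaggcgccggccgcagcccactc

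The Esrrb windows held a CCACCC match each, starting at position -37 of the first and -103 of the second start, and the first also held a TTCNNNGAA match at -178. None of the 4 motifs matched the Tfcp2l1 window, the end of which overlaps the RefSeq locus of the gene (from base 118627923). Matches did not overlap each other. Of the 32851 windows of this length in the table, 28.1% held CCACCC, 7.02% TTCNNNGAA, 4.08% AAGGTCA and 1.6% ATGCAAAT, and 1 window that holds the octamer is that of Zfp42, shown for this reason.
Zfp42, chr8:43307010-43307259 (minus strand): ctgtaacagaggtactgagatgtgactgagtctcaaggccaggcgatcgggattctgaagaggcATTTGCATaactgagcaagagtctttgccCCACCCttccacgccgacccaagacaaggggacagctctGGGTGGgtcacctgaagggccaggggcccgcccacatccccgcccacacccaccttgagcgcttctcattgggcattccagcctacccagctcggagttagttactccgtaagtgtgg

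The octamer match of Zfp42 started at -186, with CCACCC matches at -157 and -118. A match is a run of letters and not a measured binding site. Windows were found for 6 of the 9 genes, and Klf5, Tbx3 and Dppa3 are named only. Of the windows not shown, those of Klf2 (-19) and Nr0b1 (-232) held a CCACCC match, and that of Klf4 matched none of the 4 motifs.

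Dppa3, also called Stella, encodes a protein of the naive epiblast and germ line that protects DNA methylation marks in the early embryo. It had a different order of groups from Esrrb. After BPA it was 10.01 at the lower and 10.00 at the higher dose, above every other array. After TMD it was 9.16 and 9.06, after PMT 9.19 and 8.83, and after CPM 9.21 and 8.97. The DMSO array read 7.88, with 7.69 to 8.16 over the E2 and DHT arrays, and the DEHP and MPA arrays read 7.79, 8.13, 7.66 and 7.88. The T3, DEX, TCDD and PCB arrays had a median of 7.87 (range 7.29 to 8.23). The BPA arrays and the TMD, PMT and CPM arrays thus stood apart from the remaining 17 arrays, of which the highest read 8.23, and from each other.

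The Klf factors are zinc finger proteins with overlapping targets, and each of the 3 measured here followed an order of its own. Klf5 had its lowest values in the TMD, PMT and CPM group, with 11.31 and 11.64 after TMD, 11.46 and 11.61 after PMT, and 11.43 and 11.50 after CPM. It was 11.74 and 11.88 after BPA. After DEHP it was 11.90 and 11.56 and after MPA 11.84 and 11.71, so that the higher dose of DEHP overlapped the TMD, PMT and CPM arrays. The 6 arrays of T3, DEX and TCDD read 12.49 to 12.59, while PCB in the same array group read 11.82 and 11.95. The DMSO array read 12.06, the DHT arrays 12.05 and 12.09, and the E2 arrays 12.15 and 12.59, so that the higher dose of E2 stood apart from the rest of its group.

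Klf2, which overlaps in function with Klf4 and Klf5 in mESCs, was 12.35 on the DMSO array, its highest value. It was 11.55 and 11.47 after DEHP and 11.18 and 11.53 after MPA, below every other array. The BPA arrays (11.73 and 11.78) overlapped the higher dose of E2 (11.74). Klf4, a direct target of Stat3, was high on the same DEHP and MPA arrays on which Klf2 was low, with 8.49 and 8.69 after DEHP and 8.69 and 8.78 after MPA. After BPA it was 8.59 and 8.40, overlapping them, and the DMSO array read 8.20. The TMD, PMT and CPM arrays had a median of 7.42 (range 7.33 to 7.89) and overlapped both E2 arrays (7.86 and 7.87), the lower dose of DHT (7.44) and the higher dose of DEX (7.70). The lowest Klf4 value was 7.23, after the lower dose of DEX.

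Tbx3, a T-box factor, and Zfp42, the marker also known as Rex1, varied least. Tbx3 was 9.48 and 9.25 after BPA, above every other array, and 8.51 to 9.11 elsewhere. Zfp42 was 9.96 and 9.84 after BPA, and the lower dose of PCB (9.85) overlapped them. Its lowest value was 9.08, after the lower dose of DEHP. The largest difference between doses of a chemical was 0.56 for Zfp42, after DEHP, beside a range of 0.89 over all arrays.

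The study set each chemical against the solvent, so the mean of its 2 arrays was compared with the DMSO array. This array was 1 for all 12 comparisons, which are not independent, and it was taken to vary like the others. Of 96 comparisons, 8 genes by 12 chemicals, 22 passed an adjusted p of 0.05 in limma, 9 higher and 13 lower than DMSO. BPA had 5 of 8 genes called, against 19.9% of all probes. Dppa3 rose by 2.12 ± 0.22 (log2 ratio ± SE, adjusted p = 1.61e-08), Esrrb by 1.39 ± 0.15 (3.61e-08), Tfcp2l1 by 1.25 ± 0.19 (1.31e-05) and Zfp42 by 0.71 ± 0.21 (0.0151). Klf2 fell by 0.59 ± 0.15 (0.0055).

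DEHP and MPA each had the same 3 of 8 genes called, against 23.8% and 26.7% of all probes. After MPA, Esrrb fell by 2.08 ± 0.15 (adjusted p = 1.06e-10), Tfcp2l1 by 1.58 ± 0.19 (6.99e-07) and Klf2 by 0.99 ± 0.15 (1.86e-05). After DEHP the log2 ratios were -1.74 ± 0.15 for Esrrb, -1.36 ± 0.19 for Tfcp2l1 and -0.83 ± 0.15 for Klf2. Klf4 was 0.39 and 0.53 above DMSO after DEHP and MPA and was not called there.

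Dppa3 rose after TMD, PMT and CPM, by 1.23, 1.12 and 1.21 (SE 0.22 each), and Klf5 fell by 0.58, 0.52 and 0.59 (SE 0.15 each). These chemicals had 3, 5 and 2 genes called, against 29.5%, 31.3% and 29.1% of all probes. Klf4 fell by 0.77 ± 0.24 after TMD and by 0.81 ± 0.24 after PMT. Klf2 fell by 0.44 ± 0.15 and Zfp42 rose by 0.58 ± 0.21 after PMT. After PCB 1 of 8 genes was called, Zfp42 with a rise of 0.59 ± 0.21 (adjusted p = 0.0411), against 20.8% of all probes. That call was lost when either PCB array was left out, and that of Zfp42 after PMT when either PMT array was. Single arrays of the lower dose also decided Zfp42 after BPA, Klf4 and Klf5 after TMD, and Klf2 and Klf5 after PMT, whose calls were lost without them. The DMSO array read 9.19 for Zfp42, below the mean of every chemical, and 12.35 for Klf2, above the mean of every chemical. The calls of Zfp42 after PCB and after PMT and of Klf2 after PMT were lost against the mean of DMSO, E2 and DHT.

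For E2 and DHT 0 genes were called in limma, with 1 of 8 at an unadjusted p under 0.05 in each, and 0% of all probes were called either. After T3, DEX and TCDD 0 of 8 were called, against 3.34%, 3.32% and 3.02% of all probes, with 1, 2 and 1 genes at an unadjusted p under 0.05. Only BPA (5 of 8) and PMT (5 of 8) had more than 3 of the 8 genes called.

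**Figure D3:**
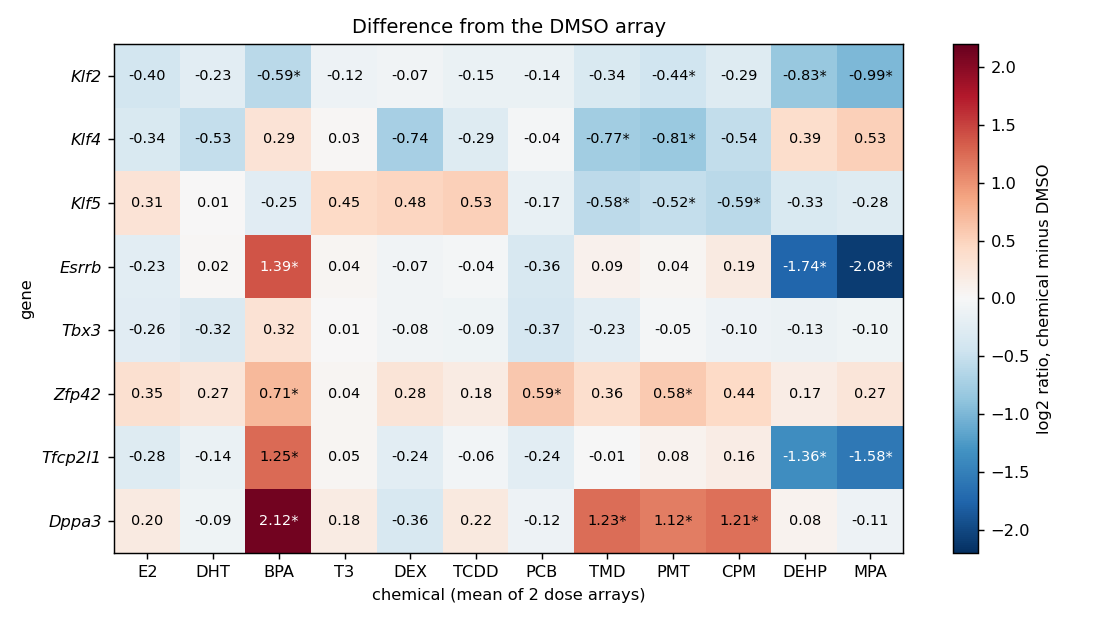
Each cell gives the log2 ratio of a chemical (horizontal axis, mean of 2 dose arrays) to the DMSO array for 1 gene (vertical axis), in colour and in figures, with an asterisk where the adjusted p of limma was under 0.05. The BPA column holds rises of Esrrb, Tfcp2l1, Zfp42 and Dppa3 (2.12 at most), the DEHP and MPA columns falls of Esrrb, Tfcp2l1 and Klf2, and the TMD, PMT and CPM columns rises of Dppa3 beside falls of Klf5.

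Chemicals of an array group were then compared with each other, which removes what the group shares. Of 88 such comparisons, 8 genes by 11 chemicals, 3 passed, all of PCB against T3, DEX and TCDD, where 28.4% of all probes passed. Klf5 was lower after PCB by 0.65 ± 0.10 (adjusted p = 1.49e-05) and Esrrb by 0.34 ± 0.10 (0.0137), and Zfp42 was higher by 0.43 ± 0.14 (0.021). The 2 PCB arrays of Klf5, at 11.82 and 11.95, did not overlap the 6 arrays of T3, DEX and TCDD. The call of Esrrb was lost when either PCB array was left out, and that of Zfp42 when either PCB array or the higher dose of DEX was. Without the lower dose of E2 the count of calls was 7, without its higher dose 5, and without the lower dose of PCB 1.

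For the other 10 chemicals 0 members were called within their array groups by limma. At an unadjusted p under 0.05 there were 11 among these 80 comparisons, in which E2 mirrors DHT and DEHP mirrors MPA. Among all probes, 0.517% were called for DEX, 1.98% for TCDD, 0.00522% for TMD and 0% for E2, DHT, T3, PMT, CPM, DEHP and MPA. Differences in Dppa3 and Klf5 among TMD, PMT and CPM, and in Esrrb and Tfcp2l1 between DEHP and MPA, were thus not detectable after adjustment. Esrrb was 0.34 higher after DEHP than after MPA (95% interval 0.09 to 0.60, adjusted p = 1.00), and Tfcp2l1 was 0.22 higher (interval -0.10 to 0.53).

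E2 and DHT are both steroids and were given at the same nominal doses, and 0 of 8 genes differed between them in limma. The largest difference was that of Klf5, 0.30 higher after E2 (95% interval 0.04 to 0.55, adjusted p = 0.248). That of Esrrb was -0.25 (interval -0.51 to 0.0036), and that of Dppa3 was 0.29 (interval -0.08 to 0.67). Differences up to the ends of these intervals remain possible.

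BPA was alone in its array group, but E2 and DHT shared its normalization set. Against their mean, a comparison chosen once the values were known, all 8 genes passed, 6 higher and 2 lower, where 39.4% of all probes passed. The median of the 8 genes was 0.67, beside 0.06 over all probes. Dppa3 was 2.07 ± 0.16 higher (adjusted p = 6.47e-12), Esrrb 1.49 ± 0.11 (2.81-fold, 1.72e-12) and Tfcp2l1 1.45 ± 0.13 (2.74-fold, 4.85e-10). Klf4 was 0.73 ± 0.17, Tbx3 0.61 ± 0.13 and Zfp42 0.40 ± 0.15 higher, while Klf5 was 0.41 ± 0.11 and Klf2 0.27 ± 0.11 lower. Without the lower dose of BPA 5 of the 8 calls were left, those of Klf2, Klf5 and Zfp42 being lost. The call of Zfp42 was also lost without the higher dose of BPA, the lower of E2 or the higher of DHT, and that of Klf2 without the higher dose of BPA, the lower of E2 or either array of DHT or CPM. Summed primitive endoderm signal was lower on the BPA arrays (11.83 and 11.87, against 14.83 to 15.14), and its part was not tested. For Tbx3 the difference over the mean of its 4 kept probes was -0.0016, as the probes differed in direction.

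In the second normalization set, DEHP and MPA were compared with the other 7 chemicals, likewise with the values known. Of the 8 genes, 5 were lower and 1 higher, where 30.8% of all probes passed, and the median of the genes was -0.38 beside -0.02 over all probes. Esrrb fell by 1.90 ± 0.07 (3.73-fold, adjusted p = 7.52e-19), Tfcp2l1 by 1.43 ± 0.09 (2.70-fold, 5.80e-14), Klf2 by 0.69 ± 0.07, Dppa3 by 0.51 ± 0.10 and Klf5 by 0.25 ± 0.07. Klf4 rose by 0.91 ± 0.11 (1.88-fold, adjusted p = 1.56e-07). Tbx3 (0.02 ± 0.09) and Zfp42 (-0.13 ± 0.10) did not pass. The call of Klf5 was lost without the higher dose of DEHP or of MPA. Endoderm signal was higher on these arrays (15.34 to 15.73, against 13.54 to 15.38), and its part was not tested. The values for Dppa3 depend on the reference, as the group of 7 holds the TMD, PMT and CPM arrays, and against E2 and DHT its difference was -0.07 ± 0.13.

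TMD, PMT and CPM were compared in the same set with T3, DEX, TCDD and PCB, where 49.6% of all probes passed. Dppa3 rose by 1.20 ± 0.10 (2.30-fold, adjusted p = 2.46e-11) and Esrrb by 0.21 ± 0.07, whereas Klf5 fell by 0.89 ± 0.07 (1.85-fold, 4.88e-12), Klf4 by 0.45 ± 0.11 and Klf2 by 0.24 ± 0.07. Endoderm signal was 13.54 to 13.75 against 13.97 to 15.38, and its part was not tested. The median of the 8 genes was 0.10, beside 0.01 over all probes.

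**Figure D4:**
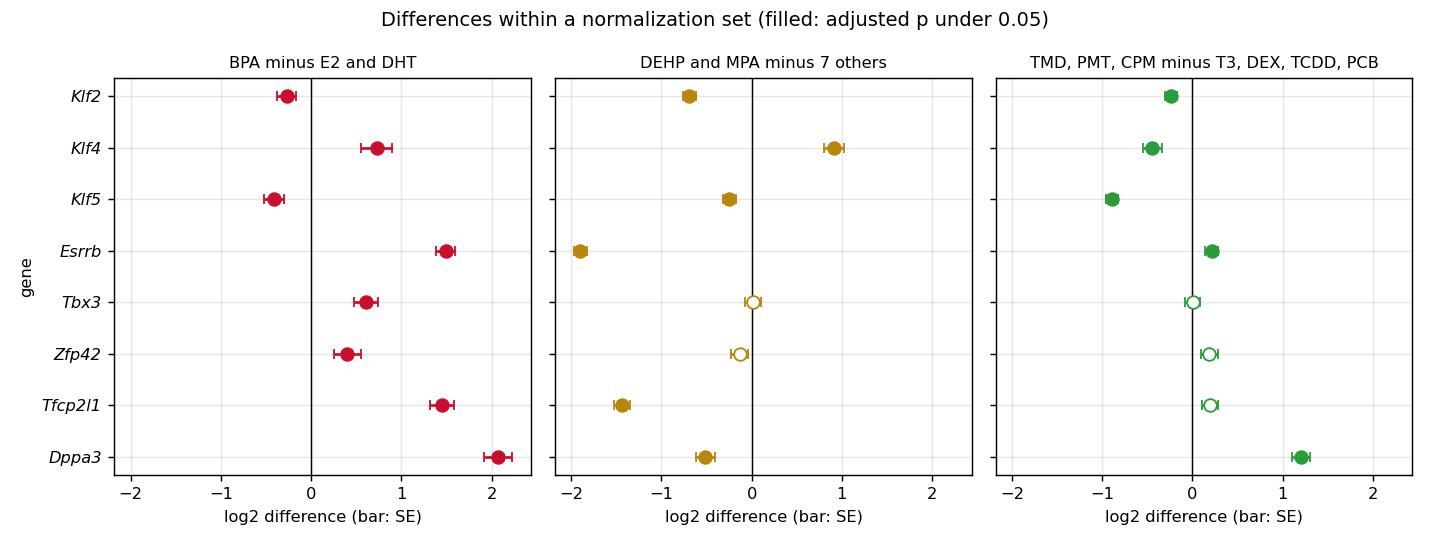
Points give the log2 difference (horizontal axis) of each gene (vertical axis) in 3 comparisons within a normalization set, with bars of 1 SE, filled where the adjusted p was under 0.05. Esrrb and Tfcp2l1 lie at 1.49 and 1.45 for BPA and at -1.90 and -1.43 for DEHP and MPA, and Klf4 lies above 0 in both.

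Against E2 and DHT, which crosses the normalization sets, 10 of 24 comparisons of the 3 other array groups passed, 5 higher and 5 lower. The DEHP and MPA group had 5 of 8 genes called, against 53.1% of all probes, with Esrrb lower by 1.81 ± 0.09 and Klf4 higher by 0.89 ± 0.14. The TMD, PMT and CPM group had 4, against 61.1%, with Dppa3 higher by 1.13 ± 0.12 and Klf5 lower by 0.73 ± 0.08. The T3, DEX, TCDD and PCB group had 1, against 35.6%, with Klf2 higher by 0.20 ± 0.08, a call lost when any of 7 of the arrays compared was left out. They were the higher dose of E2, both doses of DHT and the lower doses of T3, DEX, TCDD and PCB. The calls of Esrrb (0.21 ± 0.08) and Tfcp2l1 (0.28 ± 0.10) after TMD, PMT and CPM also rested on single arrays. That of Esrrb was lost without the higher dose of E2, DHT, TMD or CPM or the lower of PMT, and that of Tfcp2l1 without the lower dose of DHT.

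No difference by dose was detectable. With the chemical as a block, 0 of 8 genes differed between higher and lower doses in limma, 0 of them at an unadjusted p under 0.05, and 0% of all probes were called. The largest mean difference was that of Klf4, 0.14 ± 0.08 higher at the higher dose, in 8 of 12 chemicals. Klf5 was 0.07 ± 0.05 higher, in 9 of 12 chemicals. Esrrb was -0.08 ± 0.05 and Tfcp2l1 -0.10 ± 0.06, each higher at the higher dose in 6 of 12 chemicals. Steps between doses differed among the chemicals, from 10-fold to 100-fold.

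The other probes of a gene did not always follow. The second Klf4 probe (ILMN_1241903), detected on 23 arrays, had log2 ratios to DMSO of -1.63 after TMD, -1.74 after PMT and -1.46 after CPM, against -0.77, -0.81 and -0.54 for the first. The 2 arrays on which it was not detected were the lower dose of TMD and the higher dose of PMT, so its ratios for TMD and PMT rest in part on signals at background. After DEHP and MPA it was 0.90 above the other 7 chemicals, close to the 0.91 of the first. Its log2 ratios to DMSO were -0.35 after DEHP and -0.03 after MPA, against 0.39 and 0.53 for the first, and none of these passed. The remaining kept Klf4 probe, ILMN_1221264, was detected on 12 arrays. Against DMSO in limma it was lower after TMD (-1.11) and PMT (-1.14), but it was detected on none of their arrays. After DEHP and MPA it was 0.93 above the other 7 chemicals. Tbx3 had 4 kept probes. Of these ILMN_3139514, detected on all 25 arrays, was 0.81 higher after BPA than after E2 and DHT, in the direction of the first, while the difference was -0.89 for ILMN_1228778 (detected on 7 arrays and on neither BPA array) and -0.53 for ILMN_3061990 (11 arrays). Against DMSO in limma, ILMN_3139514 was lower after PCB (-0.89 ± 0.29, adjusted p = 0.0271) and TMD (-0.88 ± 0.29, 0.0217), where the first did not pass.

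Across the 25 arrays, in the plot of the endoderm markers, Dppa3 correlated with the summed marker signal at r = -0.88, Tfcp2l1 at -0.76 and Esrrb at -0.72. After the mean of each array group was removed, r was 0.10, 0.26 and 0.43, so the negative relations lay between the groups. Klf5 had r = 0.53 over all arrays and 0.91 within the groups, where both the PCB arrays (low for both) and the higher dose of E2 (15.14 for the markers, 12.59 for Klf5) fall on the line. These values describe arrays that share cultures and scaling, and n is 25. In the sum the brightest markers, such as Amn, Lama1 and Dab2, weigh most.

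The formative and primed genes, which rise as mESCs leave the naive state, were kept for 8 of 11 genes. After BPA 6 of 8 were lower than after E2 and DHT and 0 higher, with a median of -0.97. The difference was -2.63 ± 0.14 for Fgf5, a growth factor of the postimplantation epiblast, and -1.45 ± 0.11 for Pou3f1, a POU factor of the same stage, while Lef1 was detected on neither BPA array. In DEHP and MPA 4 of 8 were higher and 1 lower than in the other 7 chemicals, with Fgf5 1.62 ± 0.09, Pou3f1 0.88 ± 0.07 and Otx2, an early factor of the formative state, 0.78 ± 0.08 higher. In TMD, PMT and CPM 1 was higher and 3 lower than in T3, DEX, TCDD and PCB. Of all probes, 39.4% passed for BPA, 30.8% for DEHP and MPA and 49.6% for TMD, PMT and CPM in these comparisons.

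Genes that are active in the naive state but encode other proteins, or factors outside the 9, were kept for 10 of 12. In DEHP and MPA 9 of 10 were lower and 1, Fgf4, higher than in the other 7 chemicals. Differences were -1.46 ± 0.11 for Nr5a2, a nuclear receptor, -1.04 ± 0.11 for Tcl1, a coactivator of Akt, and -1.02 ± 0.11 for Jam2, a junction protein. Against E2 and DHT, where 53.1% of all probes passed, 4 of 10 were lower and 1 higher, with a median of -0.24. After BPA 4 of 10 were higher and 1 lower than after E2 and DHT, with the F-box gene Fbxo15 at 0.79 ± 0.12 and Nr5a2 at 0.74 ± 0.16. Of all probes, 39.4% passed for BPA against E2 and DHT and 30.8% for DEHP and MPA against the other 7 chemicals. Prdm14, a repressor of formative genes, was detected on 7 of the 25 arrays, among them both of BPA and none of DMSO, E2 and DHT.

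Of the core factors, which both naive and primed cells express, Nanog was 0.67 ± 0.13 higher after BPA, with Sall4 at 0.69 ± 0.09 and Pou5f1 at 0.45 ± 0.09, and Sox2 (-0.15 ± 0.12) did not pass. In DEHP and MPA 2 of 4 were lower than in the other chemicals of their normalization set, which include TMD, PMT and CPM. The differences were -0.60 ± 0.09 for Nanog and -0.44 ± 0.08 for Sox2. Against E2 and DHT, where 53.1% of all probes passed, 0 of 4 were lower and 1, Sall4, was higher, with a median of 0.03. Against DMSO 1 was higher and 1 lower after DEHP, and likewise after MPA. In TMD, PMT and CPM 3 of 4 were higher than in T3, DEX, TCDD and PCB, with Sall4 at 0.58 ± 0.06 and Nanog at 0.45 ± 0.08. In the comparisons within a normalization set, the shares of all probes that passed were 39.4% for BPA, 30.8% for DEHP and MPA and 49.6% for TMD, PMT and CPM.

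Of the LIF pathway, 8 of 8 genes were kept. In TMD, PMT and CPM 5 were lower and 0 higher than in T3, DEX, TCDD and PCB, where 49.6% of all probes passed. Socs3, the feedback inhibitor that Stat3 induces, fell by 1.99 ± 0.09, Junb by 0.90 ± 0.12 and Stat3 itself by 0.68 ± 0.08, and the receptor Lifr was detected on 0 of the 6 arrays. After PCB, against T3, DEX and TCDD, Socs3 fell by 1.09 ± 0.13, with 4 of 8 genes lower and 0 higher, where 28.4% of all probes passed. In DEHP and MPA 1 gene, Lifr, was higher and 3 were lower, and after BPA 2 were higher and 2 lower. The shares of all probes that passed there were 30.8% and 39.4%. Of the members downstream of this pathway, Klf4 fell by 0.45 in TMD, PMT and CPM, while Tfcp2l1 differed by 0.20 ± 0.08 (adjusted p = 0.0523). After PCB the differences were 0.29 ± 0.16 for Klf4 and -0.16 ± 0.13 for Tfcp2l1, and neither passed. In DEHP and MPA Klf4 rose by 0.91 and Tfcp2l1 fell by 1.43, and after BPA they rose by 0.73 and 1.45. A relation of these members to the pathway genes was not tested.

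The genes whose signal was most like that of each member over the 25 arrays were taken by Pearson's r, given here with r after the array group means were removed. For Esrrb they were Tfcp2l1 (0.98, 0.73), E2f2, a cell cycle factor (0.96, 0.49), and Hal, the enzyme that degrades histidine (0.95, 0.57). For Tfcp2l1 they were Esrrb, Ltbp4 (0.96, 0.53) and Pcsk6 (0.95, 0.70). For Dppa3 they were Aox3 (0.94, 0.39), Zfhx2 (0.93, 0.04) and Aard (0.93, 0.15), whose likeness lay mostly between array groups. For Klf5 they were Focad (0.95, 0.82), Cercam (0.95, 0.79) and Irx2 (0.94, 0.76). The first gene for Klf2 was Gprasp2 (0.88, 0.37), for Klf4 Plk2 (0.74, 0.11), for Tbx3 Man2a2 (0.75, 0.54) and for Zfp42 Ccs (0.77, 0.70). Among the 28 pairs of members, the next highest r after that of Esrrb and Tfcp2l1 was Tfcp2l1 with Dppa3 (0.64, and -0.02 within groups).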

How the data were processed

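Intensity values of 45281 probes on 25 arrays, with their detection p-values, were deposited by the authors as a non-normalized, background-subtracted table. A second intensity table, normalized by the authors in 2 sets, served as an alternative. Symbols came from the platform's annotation (34885 probes with 1 symbol, 18 with several, 10378 unnamed), and 34807 matched RefSeq by gene identifier. The methods name version 1 of the WG-6 array and the platform record version 2. Background was corrected with nec of limma 3.58.1 (R 4.3.3, offset 16), arrays were quantile-normalized together and log2 taken. A group per chemical and DMSO was fitted with lmFit and eBayes with trend (12 residual degrees of freedom), with Benjamini-Hochberg adjustment over 19140 kept probes at 0.05. The fit was tested on simulated data. All 9 members are named, the 8 with a kept probe by the brightest, and the 3 most similar genes were sought for each of these 8. The comparisons of BPA with E2 and DHT and within the second normalization set were added after the data had been examined. Members and lists were chosen with earlier results of these data known. Alternatives were other backgrounds, scalings, filters, references, covariates, the methods' t-test and leaving out arrays. No slide or scan date was used here. The number of arrays, 1 per condition, limits the precision.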

Additional observations from a re-analysis of the deposited data

Results flagged for a closer look

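Within array groups of 4 to 8 arrays, 32 sets of values, 1 per gene and group, were searched for an array far from the rest by Dixon's test, which marks about 1 in 20 sets by chance, and 3 were found. Klf5 after the higher dose of E2 was 12.59, where the other 4 arrays of DMSO, E2 and DHT read 12.05 to 12.15. Tbx3 after the lower dose of PCB was 8.51, where the other 7 arrays of T3, DEX, TCDD and PCB read 8.84 to 9.11. Tbx3 after the lower dose of TMD was 8.66, where the other 5 arrays of TMD, PMT and CPM read 8.912 to 9.002.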

How the results depend on the processing

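The direction of 53 of 54 called differences of members held under the alternatives run on them, the exception being Tbx3 after BPA over the mean of all kept probes (-0.0016). Of the 54, 5 calls were lost under 75th percentile scaling, 4 without a filter, 11 without trend and 3 of 22 against the mean of DMSO, E2 and DHT, which called 33 in place of 22 comparisons of the other 10 chemicals. The calls within array groups numbered 5 with probes detected on all arrays and 1 without trend. The methods' t-test called 6 before and 1 after Benjamini-Hochberg adjustment. Leaving out 1 array gave 1 to 7 calls within array groups, 5 to 8 for BPA against E2 and DHT, 19 to 29 against DMSO and 8 to 10 between array groups. No paired analysis by replicate was possible because the labels give no replicate numbers, and dose level as a covariate kept 25 of the 25 calls refitted. With 1 DMSO array, changes in genes near the noise cannot be told from the spread between doses, and Nr0b1 lay at background.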

Other observations

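Lists of other cell types and regulators were counted in the comparisons within a normalization set. Of all probes, 39.4% passed for BPA, 30.8% for DEHP and MPA, 49.6% for TMD, PMT and CPM and 28.4% for PCB. Of 6 trophoblast genes kept, 4 were lower and 1 higher after BPA, and in DEHP and MPA 2 were higher, the keratins Krt8 (1.12 ± 0.07) and Krt18 (1.15 ± 0.09), which primitive endoderm also expresses. Of 6 regulators of the exit from naive pluripotency, 4 were higher and 1 lower in TMD, PMT and CPM, with the zinc finger factor Zfp281 at 0.90 ± 0.07, and Zfp281 was 0.93 ± 0.12 higher after BPA, where 2 were higher and 1 lower. In DEHP and MPA 0 passed against the other 7 chemicals, with a median difference of 0.10. Against E2 and DHT, where 53.1% of all probes passed, 4 of the 6 were higher and 1 lower, with a median of 0.47. Of 3 germ cell genes kept, Stra8, which retinoic acid induces, was detected on 10 of the 25 arrays, on both of BPA and on none of DMSO, E2, DHT, DEHP and MPA. Stra8 was higher in TMD, PMT and CPM than in T3, DEX, TCDD and PCB (2.28 ± 0.20). The other 2 genes kept were lower there, Dazl by 0.69 ± 0.13 and Ddx4, with a median of -0.43 over the 3. In DEHP and MPA 1 of the 3 was lower and 0 higher. Of 2 primitive streak genes kept, Gsc and Evx1, Gsc was lower in TMD, PMT and CPM, but was detected on 2 of the 25 arrays, and Evx1 was lower after PCB than after T3, DEX and TCDD. Their median difference was -0.19 after BPA and -0.25 in DEHP and MPA. Of 5 feeder fibroblast genes kept, 5 were lower in TMD, PMT and CPM, 2 higher in DEHP and MPA, and 1 higher and 1 lower after BPA. Against E2 and DHT, 0 of the 5 were higher and 1 was lower in DEHP and MPA.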
